A study of Homo sapiens with 9 samples.

Results

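The genes described here are the molecular chaperones and protein folding factors of HepG2 cells, taken by name from the deposited counts: every feature whose Entrez number maps to a human symbol of the HSPA, HSPB, HSPD, HSPE, HSPH, HSP90, DNAJA, DNAJB, DNAJC, CCT, PDIA or BAG series. Of the 11746 features with an Entrez number, 78 carried such a symbol. By the place where their products are known to work, 42 were classed as cytosolic (the nucleus included) and 16 as residents of the endoplasmic reticulum (ER). Another 7 were classed as mitochondrial and 13 as other. The class other holds pseudogenes, a divergent transcript, J-domain genes that were not given a place here, and HSPBAP1, which the rule takes in by its first letters. The rule uses names and no measured value.

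Chaperones hold and refold other proteins. HSP70 proteins bind short hydrophobic stretches in a cycle driven by ATP, J-domain proteins (the DNAJ series) deliver clients and trigger ATP hydrolysis, and HSP110 and BAG proteins release the nucleotide. HSP90 acts late on kinases and receptors, the CCT ring folds actin and tubulin, small heat shock proteins keep unfolded chains from clumping, and in the ER lumen protein disulfide isomerases (the PDIA series) form and reshuffle disulfide bonds. Cytosolic chaperones are classically controlled by the heat shock factor HSF1 and ER chaperones by the unfolded protein response, while hepatocytes depend on the ER set because they secrete most plasma proteins.

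HepG2 is a human liver cancer line. All groups were HepG2 cells transduced with a lentiviral Cas9 vector that also carries one guide RNA: sgCtrl cells had a guide against the AAVS1 safe-harbour locus (treatment label sgAAVS168), and sgKeap1-1 and sgKeap1-2 cells each had another guide against KEAP1, the adaptor that marks the transcription factor NRF2 for degradation. Whether the transduced cells were kept as a pool or as a clone is not stated in the sources used here. The cells received no siRNA, RNA was taken 48 h after seeding, and each group had 3 libraries, which the sources used here do not tie to separate cultures (libraries with the same number in the 3 groups share a prefix in the labels, whose meaning is not stated), so that p-values measure only the spread between these libraries. The comparison asks which folding genes differ once KEAP1 has been targeted, with the cytosolic and ER sets apart. Libraries were made by QuantSeq, which reads the 3′ end of polyadenylated transcripts about once per molecule, so that normalised read counts scaled to a common library size (CPM) of different genes are set side by side here without a length term.

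The libraries held 3051755 to 4793757 counted reads (median 3809616). KEAP1 transcripts were not called different with either guide: sgKeap1-1 gave a log2 fold change of -0.40 (adjusted p = 0.211, edgeR), sgKeap1-2 one of 0.02 (adjusted p = 0.952, edgeR). A 3′ read lies away from the cut site and does not test whether the protein was lost. NQO1, a detoxifying reductase and classical NRF2 target, was 2.60-fold higher with sgKeap1-1 and 3.34-fold higher with sgKeap1-2 (adjusted p = 8.25e-06 and 8.47e-07, edgeR). Hepatocyte markers were present in every library, with ALB (albumin) at 3489 to 16310.0 CPM. Of 11 such markers, 5 were called lower with sgKeap1-1 and 6 with sgKeap1-2, and 1 was called higher in each. Their summed level was 36040.0 to 45100.0 CPM in sgCtrl, 24240.0 to 31270.0 CPM in sgKeap1-1 and 21450.0 to 24180.0 CPM in sgKeap1-2, and its part in the values below was not tested. Of 7 endothelial, immune and fibroblast markers, 3 were listed and together reached at most 20.4 CPM in sgCtrl, 16.8 CPM in sgKeap1-1 and 18.3 CPM in sgKeap1-2. Replicate 3 of sgKeap1-2 was the highest of the 9 libraries for 20.7% and the lowest for 21.1% of the 8641 features that averaged 10 CPM or more, more than any other library. For several members described below, log2 fold changes are also given without it.

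Promoter sequences are shown for 4 members, because the text below returns to the response elements in them: DNAJB4 and HSPB1, the members that both guides changed, and HSPA8 and HSPA5, the constitutive HSP70 of the cytosol and the HSP70 of the ER lumen. Each is the 250 bases before the annotated transcription start (RefSeq, GRCh38.p14), written 5′ to 3′ on the gene's strand, and capitals mark letters that match a motif. The DNAJB4 window is that of the downstream one of its annotated starts (chr1:78004689-78004938, plus strand), while the window of the upstream start (chr1:77978925-77979174) held none of the motifs searched. The others are chr7:76302423-76302672 (plus strand) for HSPB1, chr11:123062137-123062386 (minus strand) for HSPA8 and chr9:125241344-125241593 (minus strand) for HSPA5.
DNAJB4: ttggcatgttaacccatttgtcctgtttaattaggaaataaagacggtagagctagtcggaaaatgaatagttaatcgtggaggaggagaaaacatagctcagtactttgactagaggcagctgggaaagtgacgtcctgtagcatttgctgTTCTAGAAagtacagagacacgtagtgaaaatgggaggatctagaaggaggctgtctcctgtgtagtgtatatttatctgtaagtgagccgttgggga
HSPB1: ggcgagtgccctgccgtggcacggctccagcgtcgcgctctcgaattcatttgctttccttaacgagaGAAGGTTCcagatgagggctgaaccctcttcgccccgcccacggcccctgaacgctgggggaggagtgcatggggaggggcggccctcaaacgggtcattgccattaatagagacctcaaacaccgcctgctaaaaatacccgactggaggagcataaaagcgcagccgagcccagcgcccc
HSPA8: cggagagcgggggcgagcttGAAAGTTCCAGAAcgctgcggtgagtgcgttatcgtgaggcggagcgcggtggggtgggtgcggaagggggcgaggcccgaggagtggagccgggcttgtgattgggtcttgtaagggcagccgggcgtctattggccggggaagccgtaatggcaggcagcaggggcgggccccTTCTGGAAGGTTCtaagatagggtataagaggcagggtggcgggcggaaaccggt
HSPA5: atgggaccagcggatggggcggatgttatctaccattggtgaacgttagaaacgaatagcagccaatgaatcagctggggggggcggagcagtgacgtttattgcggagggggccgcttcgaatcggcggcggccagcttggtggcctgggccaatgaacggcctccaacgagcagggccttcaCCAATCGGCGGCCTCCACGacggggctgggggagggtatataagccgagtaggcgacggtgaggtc
Capitals in DNAJB4 and HSPB1 mark a short heat shock element of 2 units (TTCNNGAA or GAANNTTC, either strand), 98 and 182 bases before the start. In HSPA8 they mark the full element of 3 units (the same letters continued by NNGAA after GAANNTTC, or by NNTTC after TTCNNGAA), present at 230 and at 55 bases before the start. In HSPA5 they mark an ER stress element (CCAAT and CCACG with 9 bases between them), 66 bases before the start. HSPB1 also held a pair of matches to the antioxidant response element (TGACNNNGC), the motif that NRF2 binds, 25 and 41 bases after its start, at chr7:76302698-76302722.
HSPB1 after the start: GCAGAGTCAgccagcaTGACCGAGC

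Promoter windows of 300 bases (250 before and 50 after each start) could be matched for 64 of the 78 members. The full heat shock element was found in 5 of 38 cytosolic members (13.2%), in 1 of 7 mitochondrial members and in 0 of 14 ER members, and in 0.608% of the 27305 genes with a window. The cytosolic carriers were DNAJA1, DNAJB6, HSP90AA1, HSP90AB1 and HSPA8, and the mitochondrial one was HSPD1. The ER stress element was found in 3 of 14 ER members (HSP90B1, HSPA5 and PDIA6) and in 0.0916% of all genes. The short heat shock element, which is part of the full one, was found in 15 of 38 cytosolic members and in 0 of 14 ER members, against 16.2% of all genes. The antioxidant response element was found in 10 of the 64 members (15.6%), in 16.1% of all genes and in 19.7% of the tested features with a window, and HSPB1 was the only member called in either comparison that held it. A match to these letters is a description of the window and no evidence that a factor binds there.

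The filter on low counts passed 75 of the 78 members (CCT6B, DNAJC6 and DNAJB5 fell below it) and 11064 features in all. Against sgCtrl, 2 of the 75 members were called higher with sgKeap1-1 and 0 lower at an adjusted p under 0.05, where 4.2% of all features were called (2.8% higher, 1.4% lower). With sgKeap1-2, 3 members were called higher and 1 lower, where 10.8% of all features were called (5.96% higher, 4.85% lower). With counts this small, and shares not above the background, the number of calls says nothing particular about folding genes. Both comparisons use the same sgCtrl libraries. DNAJB4 and HSPB1 were called with both guides, DNAJC25 and DNAJC9 with sgKeap1-2, and 0 ER and 0 mitochondrial members were called with either guide by edgeR, with an unadjusted p under 0.05 for 1 ER member in each comparison and for 0 mitochondrial members. Over the cytosolic members the median log2 fold change came to 0.07 for sgKeap1-1 and 0.06 for sgKeap1-2, that of the ER members was 0.11 with each guide, and that of all features tested was -0.001 and -0.01. With sgKeap1-1 the ER median was 0.04 without sgKeap1-1 replicate 2 and 0.18 without sgKeap1-1 replicate 3, and with sgKeap1-2 it was -0.007 without sgKeap1-2 replicate 2. In RNA from whole cultures, a change in the share of cells that express a gene and a change in RNA per cell cannot be told apart.

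**Figure D1:**
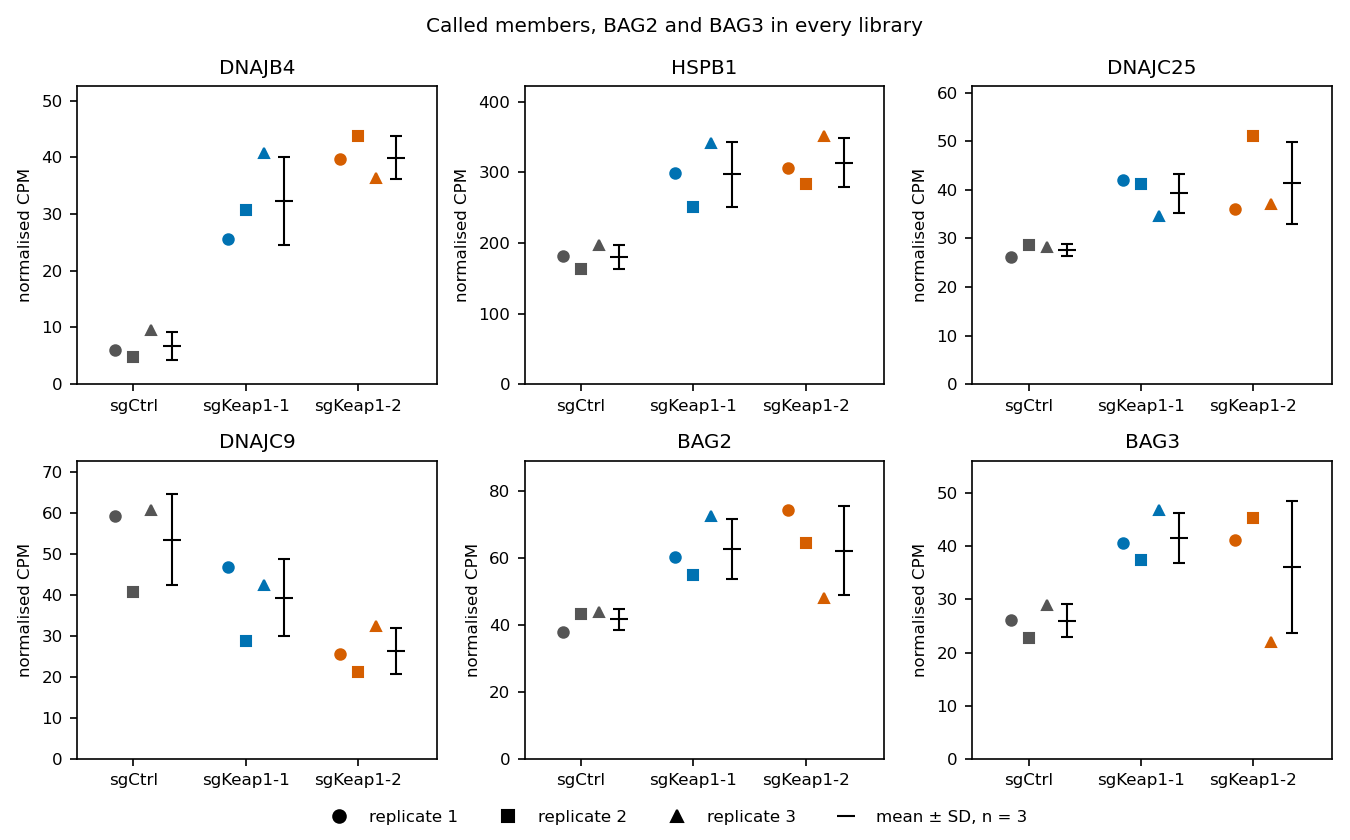
Normalised CPM (y axis, from 0) of 6 members in the 9 libraries by group (x axis), with marker shape for the replicate number and a bar for the mean ± SD of 3 libraries. DNAJB4, HSPB1, DNAJC25 and BAG2 lie above every sgCtrl library in all 6 KEAP1-guide libraries, as do 8.04% of all features. BAG3 does so in 5 of the 6, with sgKeap1-2 replicate 3 at 22.0 CPM.

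DNAJB4 showed the strongest change of any member called. It encodes a cytosolic class II J-domain protein that serves HSP70 and lies at chr1:78444859-78483648 on the plus strand (GRCh37, GENCODE lift-over). Its level was 6.09, 4.76 and 9.47 CPM in the sgCtrl libraries 1 to 3, 25.6, 30.7 and 40.7 CPM in the sgKeap1-1 libraries and 39.7, 43.9 and 36.3 CPM in the sgKeap1-2 libraries. The lowest KEAP1-guide library was thus far above the highest sgCtrl library. The rise was 4.70-fold with sgKeap1-1 (95% interval 3.21 to 6.88, log2 fold change 2.23, SE 0.26, adjusted p = 0.000113, edgeR) and 5.82-fold with sgKeap1-2 (3.97 to 8.51, log2 fold change 2.54, SE 0.26, adjusted p = 1.56e-05, edgeR). The guides did not separate from each other (log2 difference 0.31, 95% interval -0.16 to 0.77). GIPC2 overlaps DNAJB4 on the same strand, so that reads in the shared stretch could have been lost or misplaced in counting, which was not tested. The level of GIPC2 was 46.9 to 56.8 CPM in sgCtrl, 30.5 to 42.5 CPM in sgKeap1-1 and 30.7 to 40.9 CPM in sgKeap1-2 (log2 fold changes -0.46 and -0.56, adjusted p = 0.203 and 0.0555, edgeR). Even after its rise DNAJB4 remained a minor J-domain transcript: DNAJB1, its best-known relative, stood at 146 to 318 CPM.

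HSPB1 (HSP27), the main small heat shock protein of these cells, was the other member that both guides changed. It lies at chr7:75931990-75933612 on the plus strand (GRCh37). Its level was 182, 162 and 196 CPM in sgCtrl, 298, 250.3 and 342 CPM in sgKeap1-1 and 306, 283 and 352 CPM in sgKeap1-2, so that neither guide overlapped sgCtrl. The rise was 1.65-fold with sgKeap1-1 (95% interval 1.34 to 2.03, log2 fold change 0.72, SE 0.14, adjusted p = 0.00767, edgeR) and 1.74-fold with sgKeap1-2 (1.41 to 2.15, log2 fold change 0.80, SE 0.14, adjusted p = 0.00183, edgeR). In CPM this was the larger shift: the mean level of HSPB1 went from 180.1 ± 17 to 297 ± 45.9 and 314 ± 35.1 CPM, that of DNAJB4 from 6.77 ± 2.43 to 32.3 ± 7.71 and 39.9 ± 3.78 CPM (SD, n = 3 each). With sgKeap1-1, 10 of the 75 tested members lay wholly above sgCtrl and 3 wholly below, where 21.8% of all features did not overlap (11.5% above, 10.3% below). With sgKeap1-2, 10 lay above and 5 below, where the share was 28.0% (14.3% above, 13.7% below). Levels of all 6 KEAP1-guide libraries lay above all 3 sgCtrl libraries for 6 of the 75 tested members (BAG2, DNAJB4, DNAJC25, DNAJC3, HSPB1 and HSPBAP1) and for 8.04% of all features. They lay below for 1 member, HSPA12A, and for 6.75% of all features.

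HSPB8, a small heat shock protein that partners BAG3 in chaperone-assisted autophagy, was barely detected. Its raw counts were 0, 2 and 0 in sgCtrl, 6, 16 and 12 in sgKeap1-1 and 12, 9 and 0 in sgKeap1-2. Pooled over libraries, the ratio to sgCtrl was 14.0 with sgKeap1-1 (95% interval 3.59 to 120.0) and 9.42 with sgKeap1-2 (2.30 to 82.9), exact binomial intervals that cover counting error only. The change did not pass the test in either comparison (adjusted p = 0.131 and 0.162, edgeR). Replicate 3 of sgKeap1-2, at 0 counts, stood with the controls. Without that library HSPB8 passed in both comparisons (log2 fold changes 3.58 and 3.68, adjusted p = 0.0272 and 0.0214, edgeR), the 1 alternative of 17 in which it did.

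Among the BAG proteins, the nucleotide exchange factors that steer HSP70 clients, BAG2 and BAG3 had the largest values. BAG2, an inhibitor of the ubiquitin ligase CHIP, stood at 37.9, 43.2 and 43.7 CPM in sgCtrl, 60.3, 54.8 and 72.5 CPM in sgKeap1-1 and 74.1, 64.3 and 47.9 CPM in sgKeap1-2. All KEAP1-guide libraries were above all sgCtrl libraries, yet the log2 fold changes of 0.59 and 0.58 missed the threshold (SE 0.18 for each, adjusted p = 0.0852 and 0.0516, edgeR). BAG3, a stress-induced partner of small heat shock proteins, stood at 26.2, 22.8 and 29.0 CPM in sgCtrl, 40.6, 37.4 and 46.8 CPM in sgKeap1-1 and 41.2, 45.3 and 22.0 CPM in sgKeap1-2. Its log2 fold changes were 0.67 and 0.47 (adjusted p = 0.148 and 0.253, edgeR). In sgKeap1-2 replicate 3 alone among the KEAP1-guide libraries it was at the sgCtrl level. Without that library BAG2 and BAG3 were called higher with both guides: the log2 fold changes of BAG3 became 0.67 and 0.73 (adjusted p = 0.0202 and 0.0132, edgeR) and those of BAG2 0.59 and 0.73 (adjusted p = 0.0240 and 0.00658, edgeR). Without sgKeap1-2 replicate 2 instead, the value of BAG3 with sgKeap1-2 was 0.28. Over 19 alternatives BAG2 was called in 3 with sgKeap1-1 and in 4 with sgKeap1-2, and BAG3 in 2 and 1. Those of BAG2 included, with each guide, the replicate block (a fit with a term for each replicate number, adjusted p = 0.0329 and 0.0231, edgeR). BAG1, BAG4 and BAG5 had log2 fold changes between -0.21 and 0.22 and were not called.

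DNAJC9, a nuclear J-domain protein that chaperones histones H3 and H4, was the 1 member called lower, and that with sgKeap1-2. It lies at chr10:74943120-75007013 on the minus strand (GRCh37), where FAM149B1 overlaps it on the opposite strand. Its level was 59.3, 40.8 and 60.7 CPM in sgCtrl, 47.0, 28.7 and 42.5 CPM in sgKeap1-1 and 25.5, 21.2 and 32.4 CPM in sgKeap1-2. All sgKeap1-2 libraries were below all sgCtrl libraries, whereas the sgKeap1-1 libraries overlapped them. The level fell by 1.02 on the log2 scale with sgKeap1-2 (95% interval -1.51 to -0.54, SE 0.23, adjusted p = 0.00881, edgeR). Without sgKeap1-2 replicate 3 that log2 fold change was -1.21, and without sgKeap1-2 replicate 2 it was -0.875. The call held whichever library was left out, with an adjusted p up to 0.0486 (without sgCtrl replicate 3, edgeR). With sgKeap1-1 the log2 fold change was -0.45 (-0.92 to 0.02, adjusted p = 0.366, edgeR). It lay between -0.61 and -0.265 when a library was left out, the latter without sgKeap1-1 replicate 2. The difference between the guides themselves was not called (log2 difference -0.57, adjusted p = 0.915, edgeR). In each group replicate 2 was the lowest library for DNAJC9.

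DNAJC12, a J-domain protein that serves phenylalanine hydroxylase and its relatives, had the most negative log2 fold change of the tested members with sgKeap1-2. Its level was 18, 41.8 and 18.1 CPM in sgCtrl, 9.73, 33.1 and 11.3 CPM in sgKeap1-1 and 7.07, 11.7 and 7.99 CPM in sgKeap1-2. Replicate 2 was the highest library in each group, and all sgKeap1-2 libraries were below all sgCtrl libraries. The log2 fold change of -1.51 with sgKeap1-2 was not called (95% interval -2.69 to -0.34, adjusted p = 0.107, edgeR). It was called in 5 of 19 alternatives. These included the replicate block (-1.49, adjusted p = 0.000134, edgeR), the DESeq2 Wald test (-1.53, adjusted p = 0.00928) and the fit of the compared groups alone (-1.51, adjusted p = 0.0234, edgeR). The others were without sgKeap1-1 replicate 2 (-1.51, adjusted p = 0.0100, edgeR) and, chosen after seeing the data, without replicate 2 of every group (-1.24, adjusted p = 0.0136, edgeR). Without sgKeap1-2 replicate 3 the value was -1.43 (adjusted p = 0.277, edgeR). With sgKeap1-1 the log2 fold change was -0.495 (adjusted p = 0.749, edgeR), and it was -1.29 without sgKeap1-1 replicate 2 (adjusted p = 0.1, edgeR). Without sgCtrl replicate 2, the highest control library, the value was 0.01 with sgKeap1-1 and -1.01 with sgKeap1-2.

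DNAJB1 (HSP40), a canonical heat shock gene, stood at 174, 146 and 242 CPM in sgCtrl, 229.7, 230.0 and 241 CPM in sgKeap1-1 and 221, 236 and 318 CPM in sgKeap1-2. Replicate 3 of sgCtrl lay inside the range of the KEAP1-guide libraries. The log2 fold changes were 0.32 and 0.47 (adjusted p = 0.462 and 0.127, edgeR), and both depended on single libraries. That with sgKeap1-1 lay between 0.17, without sgCtrl replicate 2, and 0.55, without sgCtrl replicate 3. That with sgKeap1-2 was 0.69 and called when sgCtrl replicate 3 was left out (adjusted p = 0.0310, edgeR). It was 0.29 and not called without sgKeap1-2 replicate 3, the highest library (adjusted p = 0.327, edgeR). With the replicate block DNAJB1 was called higher with sgKeap1-2 (log2 fold change 0.47, adjusted p = 0.00977, edgeR). The abundant J-domain genes DNAJC8, DNAJC7, DNAJC5, DNAJA1 and DNAJA2 had log2 fold changes between -0.07 and 0.08 with both guides. DNAJC21, next in level after DNAJA2, had -0.15 and -0.20 and was not called (adjusted p = 0.682 and 0.378, edgeR). Its sgKeap1-2 libraries lay below sgCtrl, as for 13.7% of all features in that comparison. Of the 17 tested cytosolic J-domain genes, 1 was called higher with sgKeap1-1, and 1 higher and 1 lower with sgKeap1-2, against 2.8%, 5.96% and 4.85% of all features in turn.

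**Figure D2:**
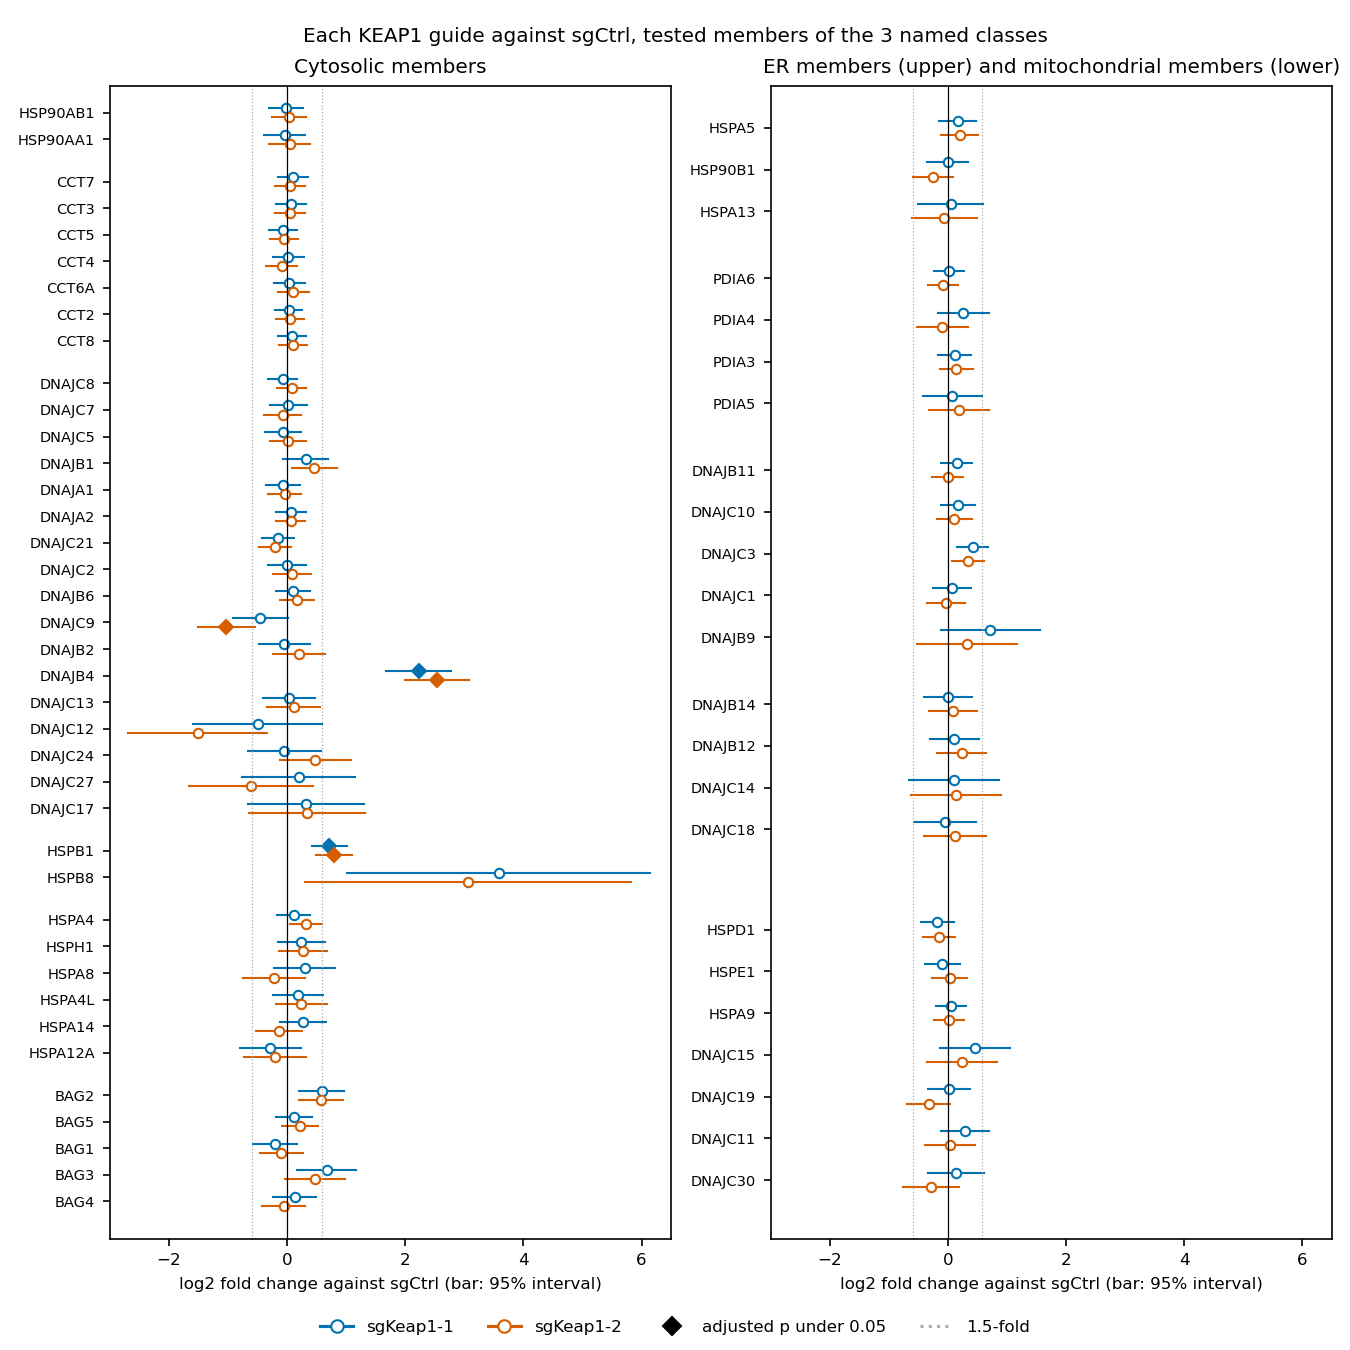
Log2 fold change against sgCtrl (x axis) with its 95% interval for each tested member of the 3 named classes, the cytosolic ones in the left panel and the ER and mitochondrial ones in the right panel. Filled diamonds mark an adjusted p under 0.05 and dotted lines mark 1.5-fold, and DNAJB4, HSPB1 and, with sgKeap1-2, DNAJC9 are the diamonds.

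The core machines of the cytosol were far more abundant and had small differences. HSP90AB1, the constitutive cytosolic HSP90, was the 7th most abundant of all numbered features, at 6312, 5743 and 6569 CPM in sgCtrl, 6355, 5698 and 6422 CPM in sgKeap1-1 and 5876, 5588 and 7597 CPM in sgKeap1-2. HSP90AA1, the inducible form, ranged from 2812 to 4217 CPM. The groups overlapped for both, and their log2 fold changes lay between -0.04 and 0.04 with each guide. For each, the 95% interval of the fold change against sgCtrl lay within 1.5-fold either way. The highest library for both was sgKeap1-2 replicate 3, without which the log2 fold change of HSP90AB1 with sgKeap1-2 moved from 0.03 to -0.12 and that of HSP90AA1 from 0.04 to -0.09. For HSP90AB1, without sgKeap1-2 replicate 2 it was 0.13. For HSP90AA1, without sgCtrl replicate 3 it was 0.19, and the value with sgKeap1-1 turned from -0.04 to 0.11. HSP90AB3P, a processed copy of HSP90AB1, took 11.7% to 14.0% of the reads of the pair, so that reads may have been split between near-identical sequences, and the sum of both was 6550.0 to 7508 CPM in sgCtrl and 6326 to 8830.0 CPM in the KEAP1-guide libraries.

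The CCT ring differed little between groups. Its 7 tested subunits of the CCT series ranged from CCT8 at 245 to 286 CPM to CCT7 at 473 to 597 CPM. Among the 7, 0 were called by edgeR in either comparison (0 with an unadjusted p under 0.05), and for all 7 the 95% interval lay within 1.5-fold with both guides, a property of 39.2% and 33.1% of all features tested and of 49.9% and 42.2% of those with a mean of at least 10 CPM. Over the ring the median log2 fold change came to 0.04 for sgKeap1-1 and 0.05 for sgKeap1-2. CCT2 had the narrowest range of any member with a mean of at least 100 CPM, its highest library being 1.14 times its lowest, where the median of 2142 such features was 1.51. TCP1 (CCT1), a ring subunit that the naming rule leaves out, stood at 317, 334 and 301 CPM in sgCtrl, 322, 305 and 362 CPM in sgKeap1-1 and 379, 354 and 364 CPM in sgKeap1-2. Its sgKeap1-2 libraries lay above sgCtrl, but the log2 fold changes of 0.06 and 0.20 were not called (adjusted p = 0.905 and 0.301, edgeR). CCT6B, a testis form that was not tested, had 23 counts in sgCtrl and 10 in each KEAP1-guide group.

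The cytosolic HSP70 and HSP110 genes varied more between libraries. HSPA8 (HSC70) stood at 156, 166 and 234 CPM in sgCtrl, 219.5, 222 and 243 CPM in sgKeap1-1 and 217, 161 and 102 CPM in sgKeap1-2, the widest range of any member with a mean of at least 100 CPM (2.39 times). Its log2 fold changes were 0.30 and -0.22 (95% intervals -0.22 to 0.82 and -0.74 to 0.30), and both moved with single libraries. The former lay between 0.19, without sgCtrl replicate 1, and 0.50, without sgCtrl replicate 3. The latter lay between -0.50, without sgKeap1-2 replicate 1, and 0.03, without sgKeap1-2 replicate 3, and was -0.01 without sgCtrl replicate 3. HSPA4 (APG2), an HSP110, stood at 197, 219.6 and 224 CPM in sgCtrl, 254, 228 and 212 CPM in sgKeap1-1 and 249, 245 and 307 CPM in sgKeap1-2. The sgKeap1-2 libraries did not overlap sgCtrl, which held for 28.0% of all features in that comparison, and the log2 fold change of 0.32 was not called (adjusted p = 0.137, edgeR) and was 0.21 without sgKeap1-2 replicate 3. HSPH1, another HSP110 and a classical heat shock gene, had log2 fold changes of 0.24 and 0.27 (adjusted p = 0.636 and 0.426, edgeR). The latter was 0.12 without sgKeap1-2 replicate 3, and without sgCtrl replicate 3 the values were 0.49 and 0.52. The heat-inducible HSPA1A, HSPA1B and HSPA6 were not analysed here, nor were DNAJA3, DNAJA4 and BAG6.

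Of the 6 members with a full heat shock element in their promoter, 0 were called in either comparison by edgeR. The short form, which was searched for after values were seen, was found in 18 of the 64 members with a window, those 6 included. Of the 16 of them that were tested, DNAJB4 and HSPB1 were called with each guide, where 4.2% and 10.8% of all features were called. The log2 fold changes of those 6 lay between -0.18 and 0.30 with sgKeap1-1 and between -0.22 and 0.17 with sgKeap1-2.

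**Figure D3:**
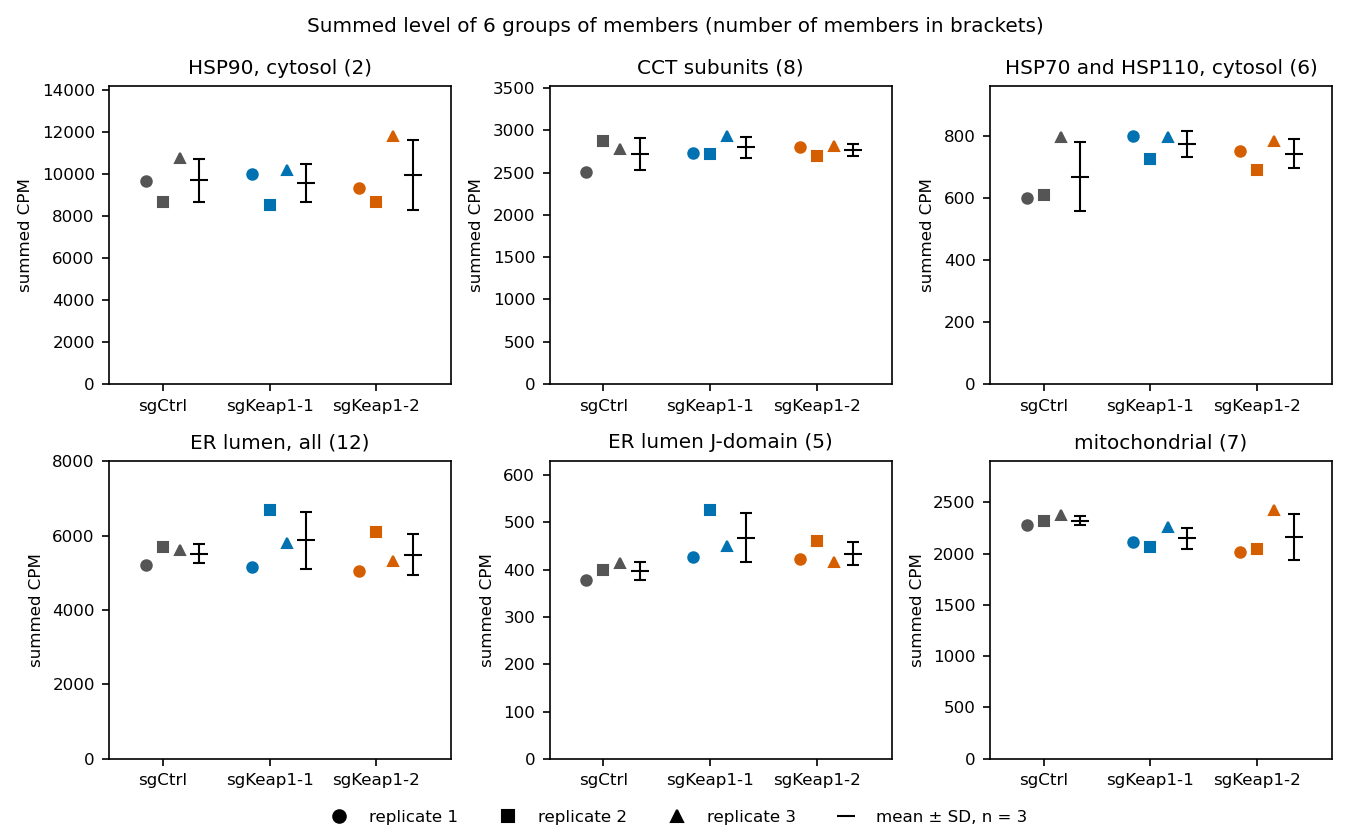
Summed normalised CPM (y axis, from 0) of 6 groups of members in each library, by group, with marker shape for the replicate number and a bar for the mean ± SD of 3 libraries. The ER lumen sum is highest in sgKeap1-1 replicate 2 at 6680.0 CPM, and the cytosolic HSP90 sum is highest in sgKeap1-2 replicate 3 at 11810.0 CPM.

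The ER set was abundant and 0 of its 16 members were called by edgeR in either comparison. Its summed level was 5602 ± 247 CPM in sgCtrl, 5969 ± 774 CPM in sgKeap1-1 and 5588 ± 555 CPM in sgKeap1-2 (SD, n = 3 each). HSPA5 (BiP), the HSP70 of the ER lumen and the sentinel of the unfolded protein response, stood at 1451, 1708 and 1695 CPM in sgCtrl, 1591, 2094 and 1747 CPM in sgKeap1-1 and 1540.0, 1895 and 2149 CPM in sgKeap1-2. The groups overlapped, and the fold changes of 1.12 and 1.15 had 95% intervals of 0.902 to 1.39 and 0.927 to 1.43. The log2 fold change of 0.16 with sgKeap1-1 was 0.04 without sgKeap1-1 replicate 2 and 0.25 without sgKeap1-1 replicate 1. That of 0.20 with sgKeap1-2 was 0.09 without sgKeap1-2 replicate 3 and 0.32 without sgKeap1-2 replicate 1. HSP90B1 (GRP94), the HSP90 of the ER, stood at 1519, 1669 and 1620.0 CPM in sgCtrl, 1322, 1894 and 1572 CPM in sgKeap1-1 and 1287, 1650.0 and 1103 CPM in sgKeap1-2. Its log2 fold changes were -0.01 and -0.25 (adjusted p = 0.993 and 0.380, edgeR), and leaving out single libraries moved the latter between -0.41, without sgKeap1-2 replicate 2, and -0.13, without sgKeap1-2 replicate 3. HSP90B2P, a pseudogene of HSP90B1 at 4.53% to 5.51% of the reads of the pair, may share its reads. HSPA5 and HSP90B1, which with PDIA6 carry the ER stress element, did not move in step in sgKeap1-2 replicate 3, where HSPA5 was at its highest of the 9 libraries and HSP90B1 at its lowest.

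The disulfide isomerases of the PDIA series gave the same picture of overlap. P4HB, listed here among the ER folding partners, falls outside that series. PDIA6, the most abundant of the series here, ranged from 1232 to 1258 CPM in sgCtrl, from 1153 to 1375 CPM in sgKeap1-1 and from 1061 to 1315 CPM in sgKeap1-2. Its log2 fold changes were 0.03 and -0.08. PDIA4 stood at 266, 341 and 282 CPM in sgCtrl, 279.6, 413 and 373 CPM in sgKeap1-1 and 265, 362 and 206 CPM in sgKeap1-2, with log2 fold changes of 0.26 and -0.09 (adjusted p = 0.626 and 0.839, edgeR). Leaving out single libraries moved the former between 0.14, without sgKeap1-1 replicate 2, and 0.41, and the latter between -0.32 and 0.08, the highest value being that without sgKeap1-2 replicate 3. PDIA3 (ERp57), the partner of calnexin and calreticulin, and PDIA5 had log2 fold changes between 0.08 and 0.19, and without sgKeap1-2 replicate 3 those with sgKeap1-2 were 0.07 for PDIA3, 0.44 for PDIA5 and -0.004 for PDIA6.

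DNAJC3 (p58IPK), a luminal cochaperone of BiP, came nearest to a call in the ER set. Its level was 86.5, 89.4 and 99.7 CPM in sgCtrl, 111, 133 and 124 CPM in sgKeap1-1 and 116, 122 and 111 CPM in sgKeap1-2. It was the 1 ER member whose 6 KEAP1-guide libraries all lay above sgCtrl. The log2 fold changes of 0.42 and 0.34 (SE 0.13 for each) were not called (adjusted p = 0.0867 and 0.107, edgeR). Without sgKeap1-2 replicate 3 that with sgKeap1-1 was called (adjusted p = 0.0494, edgeR), as it was with the replicate block (0.41, adjusted p = 0.0305, edgeR). DNAJB9 (ERdj4), a transcript of the IRE1 and XBP1 branch, stood at 14.3, 17.7 and 14.8 CPM in sgCtrl, 18.7, 39.2 and 18.4 CPM in sgKeap1-1 and 20.3, 28.3 and 9.92 CPM in sgKeap1-2. Its sgKeap1-1 libraries lay above sgCtrl, but the library of 39.2 CPM set most of the mean, and the log2 fold change of 0.72 (SE 0.38, adjusted p = 0.433, edgeR) was 0.26 without it. With sgKeap1-2 the log2 fold change was 0.33, and it was 0.65 without sgKeap1-2 replicate 3 and -0.05 without sgKeap1-2 replicate 2. DNAJB11 (ERdj3) had log2 fold changes of 0.15 and 0.00, and the 4 J-domain genes of the ER membrane had values between -0.05 and 0.23.

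Among the 12 ER lumen members, the extreme values gathered in particular libraries. For 8 of the 12 (DNAJB11, DNAJB9, DNAJC10, DNAJC3, HSP90B1, HSPA13, PDIA4 and PDIA6) the highest of the 9 libraries was sgKeap1-1 replicate 2, which was the highest for 11.5% of features that averaged 10 CPM or more. For 4 of them (DNAJB9, DNAJC10, HSP90B1 and PDIA4) replicate 2 was the highest library in each of the 3 groups, as for 13.4% of those features. The lowest library was sgKeap1-2 replicate 3 for 5 of the 12 (DNAJB9, HSP90B1, PDIA4, PDIA5 and PDIA6), as for 21.1% of those features. With sgKeap1-1, 11 of the 12 had a log2 fold change above 0, with a median of 0.13, against 49.9% of all features tested. Without sgKeap1-1 replicate 2 that median was 0.04. With sgKeap1-2, 6 of the 12 were above 0. Libraries with the same replicate number share a label prefix across the 3 groups, and what number and prefix stand for is not stated in the sources used here.

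**Figure D4:**
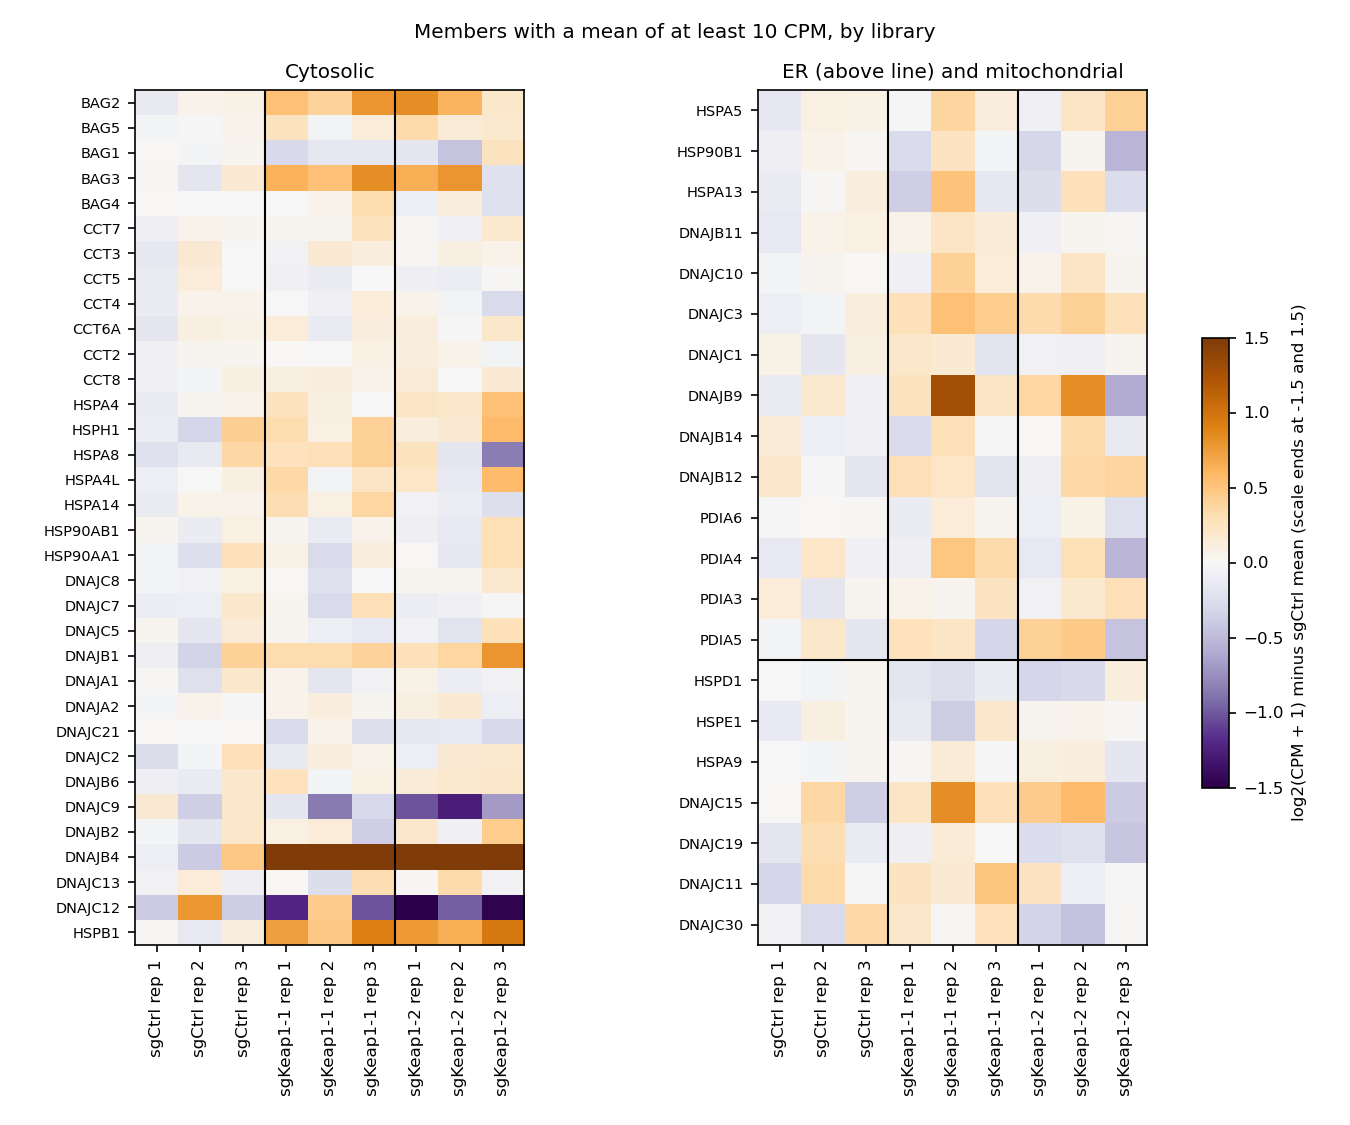
Members of the named classes with a mean of at least 10 CPM (rows) in the 9 libraries (columns, replicate number after rep), as log2(CPM + 1) minus the mean of the 3 sgCtrl libraries. DNAJB4, HSPB1 and BAG2 are raised across the KEAP1-guide columns, whereas 8 of the 12 ER lumen rows have their highest value in sgKeap1-1 replicate 2.

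Of the 7 mitochondrial members 0 were called by edgeR, and their summed level was 2321 ± 47.6 CPM in sgCtrl, 2146 ± 99.5 CPM in sgKeap1-1 and 2161 ± 225 CPM in sgKeap1-2 (SD, n = 3 each). HSPD1 (HSP60), which forms the folding cage of the matrix with HSPE1 (HSP10), stood at 1675, 1627 and 1728 CPM in sgCtrl, 1480.0, 1419 and 1550.0 CPM in sgKeap1-1 and 1339, 1366 and 1824 CPM in sgKeap1-2. All sgKeap1-1 libraries were below sgCtrl, as for 10.3% of all features in that comparison, and sgKeap1-2 was so in 2 of 3. The log2 fold changes of -0.18 and -0.15 were not called (adjusted p = 0.605 and 0.543, edgeR), and the latter was -0.31 without sgKeap1-2 replicate 3 (adjusted p = 0.0724, edgeR) and -0.07 without sgKeap1-2 replicate 1. HSPE1 and HSPA9 (mortalin) had log2 fold changes between -0.09 and 0.05. DNAJC15, an inner membrane J-domain protein of the import motor, ranged from 39.9 to 94.7 CPM, with log2 fold changes of 0.45 and 0.24 (adjusted p = 0.502 and 0.671, edgeR). The former was 0.23 without sgKeap1-1 replicate 2. The latter was 0.49 without sgKeap1-2 replicate 3 and 0.07 without sgCtrl replicate 3.

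Of the 13 members outside the named classes, DNAJC25 was called higher with sgKeap1-2. It encodes a membrane J-domain protein and lies at chr9:114393614-114416631 on the plus strand (GRCh37). Its level was 26.2, 28.6 and 28.1 CPM in sgCtrl, 42.1, 41.1 and 34.7 CPM in sgKeap1-1 and 36.0, 51.2 and 37 CPM in sgKeap1-2, with no overlap of either guide with sgCtrl. The rise was 1.5-fold with sgKeap1-2 (95% interval 1.15 to 1.96, adjusted p = 0.0487, edgeR), and with sgKeap1-1 the value was 1.42-fold (1.09 to 1.85, adjusted p = 0.149, edgeR). The call was lost in 11 of 19 alternatives, 7 of which each leave out 1 library, and the adjusted p ranged from 0.0183 to 0.26 over all of them. A read-through gene, DNAJC25-GNG10, overlaps it on the same strand and was not analysed here. PTGR1, an NRF2-controlled prostaglandin reductase whose transcripts rose 33.9-fold and 49.2-fold (adjusted p = 2.36e-09 and 7.61e-10, edgeR), lies 31441 bases from DNAJC25 on the opposite strand. HSPBAP1, at 1.11 to 2.12 CPM in sgCtrl and 2.36 to 4.79 CPM in the KEAP1-guide libraries, was not called (adjusted p = 0.198 and 0.190, edgeR). DNAJB5, a cytosolic member that was not tested, had 8 counts in sgCtrl, 36 in sgKeap1-1 and 10 in sgKeap1-2.

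Between the guides, 0 of the 75 members were called by edgeR, where 0.0181% of all features were, and 2 members had an unadjusted p under 0.05. The libraries of the guides lay wholly higher with sgKeap1-2 for 2 members and wholly lower for 5, where 10.4% of all features did not overlap (5.5% higher, 4.93% lower). The median log2 difference, sgKeap1-2 minus sgKeap1-1, was 0.03 over the cytosolic members and -0.07 over the ER members. Without sgKeap1-1 replicate 2 both medians changed sign, to -0.01 and 0.04, and without sgKeap1-2 replicate 3 they were -0.02 and -0.03. Of the 12 ER lumen members, 9 were lower with sgKeap1-2, as were 5598 of the 11064 features tested, and their median difference of -0.10 was -0.006 without sgKeap1-1 replicate 2. Missing the threshold does not show that the guides act alike: for 43 of the 75 members the 95% interval of the difference lay within 1.5-fold, and for the others it did not.

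The wider folding network was read from lists of partners that the naming rule leaves out. Of 34 tested ER folding partners, 1 was called higher with sgKeap1-1 and 4 with sgKeap1-2, against 2.8% and 5.96% of all features. Of the 34, 0 were called lower by edgeR, and the median log2 fold change was 0.13 and 0.08. ERP27, a redox-inactive disulfide isomerase relative, rose with both guides, from 2.91, 1.36 and 4.18 CPM in sgCtrl to 9.49, 5.44 and 12.6 CPM in sgKeap1-1 and 13.5, 8.53 and 12.1 CPM in sgKeap1-2 (log2 fold changes 1.65 and 1.96, adjusted p = 0.0350 and 0.00571, edgeR). The others were called with sgKeap1-2: HYOU1 (GRP170), an exchange factor for BiP, 1.43-fold (adjusted p = 0.0167, edgeR), SIL1, the other exchange factor for BiP, 1.60-fold (adjusted p = 0.0214, edgeR), and FKBP10, a collagen prolyl isomerase, 1.55-fold (adjusted p = 0.0128, edgeR). HYOU1 stood at 153, 165 and 168 CPM in sgCtrl, 197, 240.5 and 226 CPM in sgKeap1-1 and 206, 250 and 238 CPM in sgKeap1-2, with no overlap of either guide with sgCtrl. With sgKeap1-1 its value was 1.36-fold (adjusted p = 0.0647, edgeR), and it was called in 4 of 19 alternatives. These were the replicate block, the DESeq2 Wald test, the fit of the compared groups alone and the fit without sgKeap1-2 replicate 3. The calls of HYOU1, SIL1 and FKBP10 with sgKeap1-2 were each lost without sgCtrl replicate 1 or replicate 3, that of HYOU1 also without sgKeap1-2 replicate 2 and without replicate 2 of every group, and that of SIL1 also without sgKeap1-2 replicate 1 or replicate 3, with adjusted p up to 0.0857, 0.110 and 0.0739 in turn (edgeR). That of ERP27 held in all 18 alternatives with sgKeap1-2 and in 12 of 18 with sgKeap1-1. Both exchange factors of BiP were called with sgKeap1-2 and BiP itself (HSPA5) was not, a difference between genes that was not tested.

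Of 23 tested cytosolic partners, 0 were called with sgKeap1-1 by edgeR (0 with an unadjusted p under 0.05) and 1 higher with sgKeap1-2. This was CDC37, which loads kinases onto HSP90, at 384, 344 and 386 CPM in sgCtrl, 462, 375 and 475 CPM in sgKeap1-1 and 500.3, 455 and 619 CPM in sgKeap1-2 (1.41-fold with sgKeap1-2, adjusted p = 0.0325, edgeR). The sgKeap1-2 libraries lay above sgCtrl, but the call was lost in 6 of 19 alternatives, each of them without 1 library (sgCtrl replicate 1, 2 or 3, sgKeap1-1 replicate 1, sgKeap1-2 replicate 1 or 3), with an adjusted p up to 0.114. Of 17 ER degradation and stress markers, 0 were called in either comparison by edgeR, with 1 at an unadjusted p under 0.05 in each. That list's largest value was for PPP1R15A (GADD34), the phosphatase subunit that reverses translational arrest, at 15.1, 17.7 and 15.9 CPM in sgCtrl, 28.7, 48.8 and 20.8 CPM in sgKeap1-1 and 32.9, 52.9 and 22.5 CPM in sgKeap1-2. All KEAP1-guide libraries lay above sgCtrl and replicate 2 was the highest in each group, but the log2 fold changes of 1.02 and 1.16 were not called (adjusted p = 0.164 and 0.0608, edgeR). Of 10 mitochondrial partners and 3 tested genes from a list of heat shock factors and HSBP1, 0 were called in either comparison by edgeR. An unadjusted p under 0.05 was found for 1 gene of the latter list with sgKeap1-1 and for 0 of the others.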

How the data were processed

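HepG2 cells with sgCtrl, sgKeap1-1 or sgKeap1-2 were profiled by QuantSeq in 3 libraries per group. Per the labels and the submitters' processing notes, the authors trimmed reads with cutadapt 1.16, aligned them with STAR 2.7.5b, counted reads per gene with featureCounts 1.6.3 and tested with limma 3.40.6. The notes name hg38 and the study's methods GRCh37, so the build of the counts is unsettled, and strand and multi-mapping settings are not given in the sources used here. The deposited values are raw counts per Entrez number, and each of the 12798 features exceeds 0.5 CPM in at least 3 libraries. The 1052 features without a number (1.34% of reads) were left out.

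Numbers were mapped to RefSeq symbols (11740 of 11746 matched). Counts were normalised by TMM and tested in R 4.3.3 with edgeR 4.0.16 (filterByExpr, quasi-likelihood test, Benjamini-Hochberg adjustment over 11064 features, threshold 0.05) in a fit of all 3 groups without a block. CPM are TMM-normalised. The code was tested on simulated counts. Intervals are 95% intervals of the fit, and pooled count ratios have exact intervals. Alternatives used limma 3.58.1 (voom), DESeq2 1.42.0, other scalings and filters, 2-group fits, the replicate number as a block and leaving out each library. Tables were handled in Python 3.11.15 with pandas 2.3.3.

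The members, the classes and the partner lists were chosen with earlier results of these data known. Named by rule were members called in either comparison, the 10 most abundant, the most abundant of each subclass, up to 4 genes per list and direction called with both guides, and KEAP1 and NQO1. All others were named after their values were seen, and the search for the short heat shock element was added then.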

Additional observations from a re-analysis of the deposited data

How the results depend on the processing

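Over 19 alternatives per value (17 for HSPB8 and 18 for ERP27), 2 of them chosen after seeing the data, DNAJB4 and HSPB1 with both guides and DNAJC9 with sgKeap1-2 stayed called, 0 named values reversed a called direction, and 0 members were called lower with sgKeap1-1 or between the guides. Members called higher with sgKeap1-1 (2) became 4 in the fit of the compared groups alone and 2 to 6 when a library was left out. Those called higher with sgKeap1-2 (3) became 2 to 6, with 6 in each comparison without sgKeap1-2 replicate 3. Those called lower with sgKeap1-2 (1) became 2 with the DESeq2 Wald test, in the fit of the compared groups alone and without replicate 2 of every group, and 1 to 2 when a library was left out. The gain was DNAJC12, called without sgKeap1-1 replicate 2 (adjusted p = 0.0100, edgeR). The cause of these shifts was not tested. The median log2 fold change with sgKeap1-2 ranged from 0.03 to 0.12 over cytosolic members and from -0.007 to 0.12 over ER members when a library was left out, the lowest ER value being that without sgKeap1-2 replicate 2. With sgKeap1-1 it ranged from 0.03 to 0.12 and from 0.04 to 0.18.

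With the replicate block, 4 members were called higher with sgKeap1-1, 5 higher and 2 lower with sgKeap1-2, where all features called went from 465 to 977 and from 1196 to 1956. The gains were BAG2 with both guides (adjusted p = 0.0329 and 0.0231, edgeR), DNAJC3 with sgKeap1-1 (0.0305), and DNAJB1 (0.00977) and DNAJC12 (0.000134) with sgKeap1-2. Deviations of same-numbered libraries correlated with r from -0.02 to 0.54 over 9 pairs, 7 of them over 0.1, and 5 of 9 libraries correlated best with their own number in both other groups, a hint from the data. Same-numbered libraries share a label prefix across the groups, but the sources used here do not say that it marks a shared culture, batch or day, and not every pair correlated, so the numbers were not taken as pairs.

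Of the members, 17 had a mean under 10 CPM, and whether depth limits their calls was not tested. With a minimum of 10 counts in every library, 9769 features were tested in place of 11064. Of these, 312 and 922 were called in place of 465 and 1196.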
